A study of Mus musculus with 47 samples.

Results

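Reads on 8 genes of ErbB and neurotrophin signaling were examined in single NPY-positive neurons: the receptors Erbb4 and Erbb3, the neuregulins Nrg1, Nrg2 and Nrg3, the neurotrophin receptors Ntrk2 and Ntrk3, and the neurotrophin Bdnf. They were chosen by name, from a count table of 22800 gene symbols, and were followed in 26 of the 47 columns of that table. The 26 columns were 10 cells of the auditory cortex (AC), 13 cells of hippocampal area CA3 and 3 cells of area CA1. The AC and CA3 columns had been matched earlier to cells drawn in the heat maps of the study, and that match was not repeated here.

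Each library held the cytosol of 1 cell, aspirated through a patch pipette, so that each sample was 1 cell. The mice were 3 to 8 weeks old, of both sexes, and of the NPY-hrGFP strain (called NPY-EGFP in the design text of the series), in which a green fluorescent protein under the Npy promoter marks NPY-positive cells. AC cells came from superficial layers in coronal slices and CA3 cells from stratum lacunosum-moleculare in horizontal slices, so that the plane of section and the region cannot be told apart. No layer is given for the CA1 cells. The cells came from 8 mice in all, no label ties a cell to a mouse, and each region was therefore treated as 1 sample: spreads over cells are descriptive, and no test between regions was made. Of the GABAergic markers, Gad1, Gad2 and Npy were read in all 26 cells, whereas Slc32a1 was read in 5 of 10 AC, 12 of 13 CA3 and 2 of 3 CA1 cells and Dlx1 in 7, 13 and 3. Of 4 neurogliaform markers, Ndnf was read in 7 of 10 AC, 1 of 13 CA3 and 3 of 3 CA1 cells. Lamp5, Reln and Nos1 were read in most AC and most CA3 cells. The study reports Ndnf more often in AC than in CA3 cells of this series, so it is not an independent check of the region labels.

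ErbB4 is a receptor tyrosine kinase that binds neuregulins. In the cortex and hippocampus it is found mainly in GABAergic interneurons, where it is known for its part in the migration of these cells and in the excitatory synapses they receive. TrkB, the product of Ntrk2, binds BDNF, which is made mainly by excitatory neurons, while TrkC, the product of Ntrk3, binds the related neurotrophin encoded by Ntf3. Astrocytes also express Ntrk2, largely as a shortened receptor without the kinase, and gene counts do not separate the full and shortened forms.

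Reads counted on genes per cell ran from 1715012 to 6265431 in AC, from 2229519 to 7949918 in CA3 and from 601781 to 3202430 in CA1. Between 3163 and 8149 genes were detected per cell. Values are given as reads, as CPM (reads per 1000000 reads counted on genes), and as levels, the log2 of the normalized count with a pseudocount of 1. A sum of 3 reads over a region was taken as the floor, which amounted to 0.0881 CPM in AC, 0.0614 CPM in CA3 and 0.596 CPM in CA1. Since the cDNA was amplified, reads do not stand for independent molecules. All intervals below are 95% intervals. Those on CPM and its ratios cover the counting error of reads alone, and those on shares take the cells as independent draws. Neither takes account of the mice, to which no cell could be tied.

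Erbb4 and Ntrk2 were the genes of the group that most NPY-positive neurons expressed. Erbb4 had reads in 23 of the 26 cells and Ntrk2 in 22, with 37922 and 33084 reads in all. Nrg3 followed with 11 cells, Ntrk3 with 7 and Nrg2 with 6. Erbb3, Nrg1 and Bdnf each had reads in a single cell. Only Erbb4, Nrg3 and Ntrk2 met the minimum of 10 cells with a read that was set for genes in comparisons over the whole table, which 6597 genes passed.

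**Figure D1:**
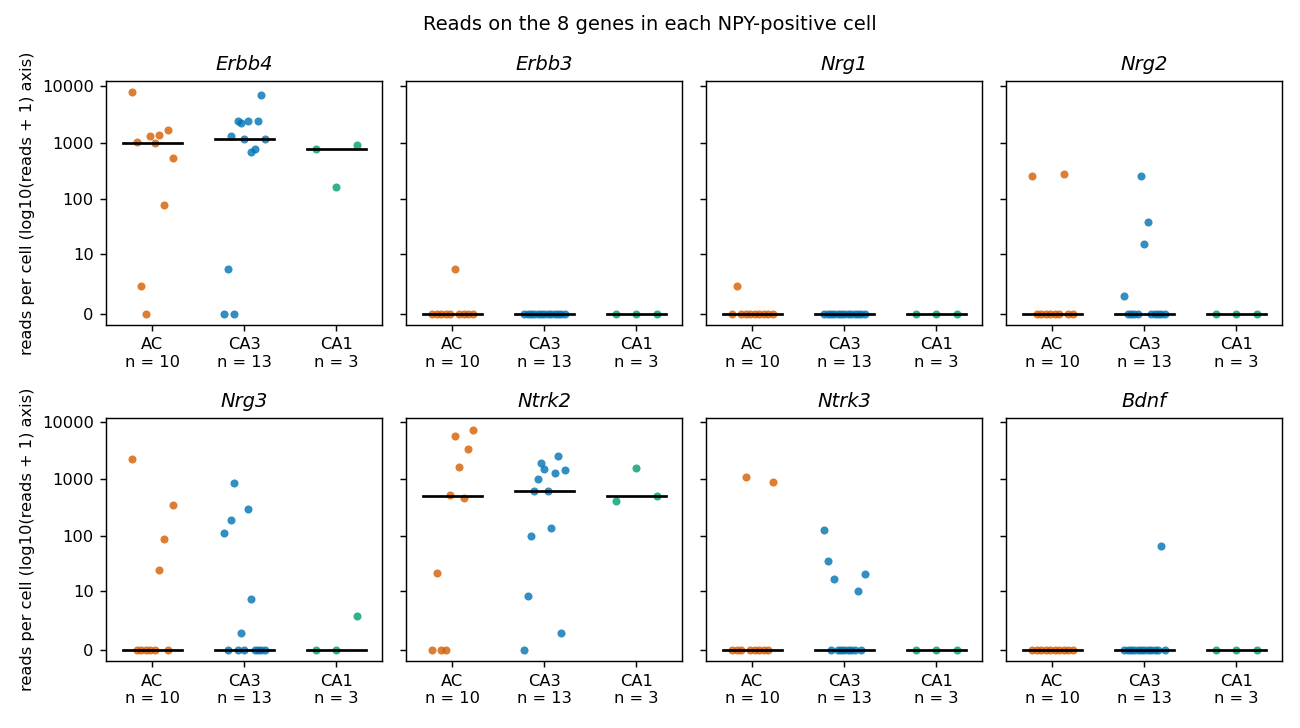
Reads per cell on the 8 genes in the 26 NPY-positive cells, on a log10(reads + 1) axis, with 1 point per cell and the median as a bar. Erbb4 and Ntrk2 were read in most cells of each region, and the other 6 genes had a median of 0 reads in AC, CA3 and CA1.

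Erbb4 (GRCm38, chromosome 1, 68032186 to 69108059, minus strand) was read in 9 of 10 AC cells, 11 of 13 CA3 cells and 3 of 3 CA1 cells. The exact intervals of these shares are 55.5 to 99.7%, 54.6 to 98.1% and 29.2 to 100%. Among AC cells, N3X had 7743 Erbb4 reads, N7 1665, N46 1356, N43 1290, N4 1017, N44 979, N8 540, N5 80, N41 2 and N42 none. N3X alone thus held 52.8% of all Erbb4 reads of AC, while N41 and N42 were at or near 0. In CA3, N39 had 6873 reads, N30 2448, N33 2422, N38 2400, N31 2210, N28 1310, N40 1143, N32 1140, N37 768 and N34 679, whereas N27 had 5 and N26 and N29 had none. The CA1 cells N6, N1 and N2X had 895, 789 and 168 reads. The ranges of the 3 regions overlapped, and in AC as in CA3 the cells were split between many with 80 reads or more and a few with 5 or fewer.

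The mean Erbb4 level was 8.23 ± 4.21 (SD over 10 cells) in AC, 8.31 ± 4.28 (13 cells) in CA3 and 10.28 ± 2.46 (3 cells) in CA1. Levels in AC and CA3 differed by -0.08, far less than the spread over cells. Summed over cells, Erbb4 made up 431 CPM in AC (424 to 438), 438 CPM in CA3 (432 to 444) and 368 CPM in CA1 (351 to 385). The ratio of AC to CA3 was 0.984, and 0.527 without N3X. The sign of the small AC to CA3 difference turned with single cells, from 0.84 without N42 to -0.77 without N26.

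The levels of different genes of the group were set side by side per length, as reads per 1000 bases of merged exons and 1000000 reads. On this scale the median of Erbb4 over cells was 28.7 in AC, 29.5 in CA3 and 58.9 in CA1. Within a cell, where it was read, Erbb4 stood at a median percentile of 58.4 among the genes read in AC, 65.8 in CA3 and 82.8 in CA1. The highest rank of an AC cell was the 95.7th percentile. For Ntrk2 the median percentiles were 59.0 in AC, 41.2 in CA3 and 53.1 in CA1.

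Erbb3 (chromosome 10, 128567523 to 128589652, minus strand), the neuregulin receptor of oligodendrocytes and Schwann cells, had 5 reads in the AC cell N44 and none in the other 25 cells. The single cell of AC puts it at 0.147 CPM there (0.0477 to 0.343), and CA3 and CA1 lay below their floors.

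The ligands were sparse. Nrg3 (chromosome 14, 38368952 to 39473088, minus strand), a neuregulin of the nervous system that binds ErbB4, was read in 4 AC, 6 CA3 and 1 CA1 cells. In AC, N3X had 2322 Nrg3 reads, N8 362, N5 90 and N46 25. In CA3, N29 had 862 reads, N33 297, N28 190, N26 116, N34 7 and N31 1, and in CA1 the cell N6 had 3. All other cells were at 0, and N3X alone held 83.0% of the Nrg3 reads of AC. The mean level was 3.04 ± 4.17 in AC, 2.81 ± 3.88 in CA3 and 1.04 ± 1.80 in CA1, and summed reads came to 82.2 CPM (79.2 to 85.3), 30.1 CPM (28.6 to 31.7) and 0.596 CPM (0.123 to 1.74). The ratio of AC to CA3 was 2.73, but 0.527 without N3X and 6.15 without N29.

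Nrg2 (chromosome 18, 36017652 to 36197380, minus strand), another neuregulin expressed in neurons, was read in 2 AC and 4 CA3 cells. The AC cells N5 and N3X had 284 and 255 Nrg2 reads. In CA3, N31 had 264 reads, N33 39, N32 16 and N26 1. No CA1 cell had a read, and the ranges of AC and CA3 overlapped. Summed reads amounted to 15.8 CPM (14.5 to 17.2) in AC and 6.55 CPM (5.85 to 7.31) in CA3. Beyond this counting error, the ratio of 2.42 was 1.21 without N5 and 12.8 without N31.

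Nrg1 (chromosome 8, 31814551 to 32884029, minus strand), the founding member of the neuregulins, was all but absent, with 2 reads in the AC cell N4. These 2 reads lay under the floor of 3. An exon of Nrg1 shares 482 bases with the noncoding gene Gm26578 on the opposite strand, which is not in the table. Whether counting used the strand is not given for certain in the sources used here.

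Of the 3 neuregulins, Nrg3 was therefore the main one per length in most cells with any neuregulin read. Of 13 such cells, 9 had most of their per-length neuregulin signal from Nrg3, 3 from Nrg2 (N5, N31 and N32) and 1 from Nrg1 (N4, on 2 reads). In N3X, the cell with most neuregulin reads, Nrg3 made up 80.7% and Nrg2 19.3% of the per-length signal, while in N5 Nrg2 made up 87.3%. Nrg2 and Nrg3 were read together in 5 of the 6 cells with Nrg2, and N32 was the cell with Nrg2 alone. In N26 this rests on 1 Nrg2 read, and in N31 on 1 Nrg3 read.

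Ntrk2 (chromosome 13, 58806569 to 59133970, plus strand) was read in 7 of 10 AC cells, 12 of 13 CA3 cells and 3 of 3 CA1 cells, with exact intervals of 34.8 to 93.3%, 64.0 to 99.8% and 29.2 to 100%. AC cells spread most widely: N8 had 7447 Ntrk2 reads, N44 5841, N7 3394, N46 1654, N43 542, N5 466 and N4 22, and N3X, N41 and N42 had none. In CA3, N38 had 2559 reads, N31 1962, N32 1494, N40 1437, N37 1280, N30 1001, N29 628, N33 616, N34 138, N28 99, N27 8, N39 1 and N26 none. The CA1 cells N2X, N6 and N1 had 1570, 503 and 422 reads, within the ranges of AC and CA3.

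The mean level of Ntrk2 was 7.17 ± 5.35 in AC, 7.63 ± 3.89 in CA3 and 10.77 ± 0.48 in CA1. On this scale AC minus CA3 was -0.46, which was small against both SDs. Summed reads went the other way, with 569 CPM (561 to 577) in AC and 230 CPM (225 to 234) in CA3, a ratio of 2.48. The opposite signs go with the shape of the values, since 3 AC cells had no Ntrk2 read while N8 alone gave 38.5% of the Ntrk2 reads of AC. CA1 lay at 496 CPM (476 to 515).

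Ntrk3 (chromosome 7, 78175959 to 78738012, minus strand) was confined to 2 AC and 5 CA3 cells among the 26. The AC cells N42 and N8 had 1098 and 916 Ntrk3 reads. In CA3, N26 had 131 reads, N27 36, N40 21, N29 17 and N38 10. No CA1 cell had a read. Both AC cells with Ntrk3 lay above all CA3 cells, but 8 of 10 AC cells were at 0, so that the mean levels of 1.94 ± 4.10 in AC and 1.94 ± 2.74 in CA3 were nearly the same while summed reads differed 13.4 times (59.1 CPM against 4.40 CPM). That ratio was 6.89 without N42 and 32.8 without N26.

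Bdnf (chromosome 2, 109674700 to 109727007, plus strand) was read in a single cell, N39 of CA3, with 67 reads. This amounted to 1.37 CPM over CA3 (1.06 to 1.74), at least 15.6-fold higher than AC when AC is set at its floor, and the whole difference was carried by N39. An exon of Bdnf shares 497 bases with the antisense gene Gm45346, which is not in the table.

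**Figure D2:**
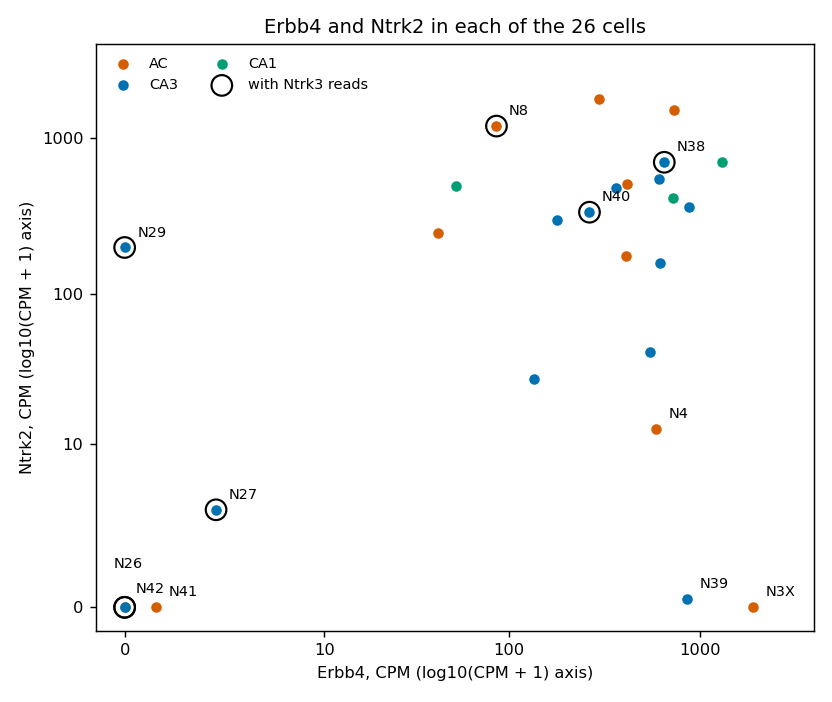
CPM of Erbb4 (x axis) and Ntrk2 (y axis) in each of the 26 cells, both on log10(CPM + 1) axes and colored by region, with rings around the 7 cells that had Ntrk3 reads. Most cells lay to the upper right with both receptors, N3X and N39 had high Erbb4 with 0 or 1 Ntrk2 reads, and N26 and N42, drawn at the same point, had neither.

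Within cells, Erbb4 and Ntrk2 were mostly read together: 21 cells had both, N3X and N41 had Erbb4 alone, N29 had Ntrk2 alone, and N42 and N26 had neither. With Erbb4 in 23 and Ntrk2 in 22 of 26 cells, most cells have both whether or not the genes are linked. N39 counts among them with 1 Ntrk2 read, and N27 with 5 Erbb4 and 8 Ntrk2 reads. Per merged exon length, Erbb4 exceeded Ntrk2 in 16 cells and Ntrk2 exceeded Erbb4 in 8. By region this held for 5 of 10 cells in AC, 9 of 13 in CA3 and 2 of 3 in CA1. The log2 ratio of Erbb4 to Ntrk2 per length had a median of 0.55 over the 21 cells with both, from -3.14 in N8 to 13.39 in N39. This order depends on the length used, because the annotation gives Ntrk2 19292 bases of merged exons but 8744 bases in its longest transcript, while Erbb4 has 12355 and 12037. With the longest transcript Erbb4 was the higher in 11 cells and Ntrk2 in 13.

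Ntrk2 was the main Trk receptor in most cells. It exceeded Ntrk3 per length in 21 cells, fell below it in N42, N26 and N27, and N3X and N41 had reads on neither gene. The counts were the same with either length.

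All 3 cells with no Erbb4 read (N42, N26 and N29) had Ntrk3 reads, and 19 of the 23 cells with Erbb4 had none. The remaining 4 cells had both, among them N27 with 5 Erbb4 and 36 Ntrk3 reads. N41, with only 2 Erbb4 reads, had no Ntrk3 read. Outside the 26 cells, the AC columns N9, N49, N50 and N51 had reads on neither gene, and N45 had 2568 Erbb4 and 227 Ntrk3 reads. Over the 26 cells Spearman's rho of the levels was -0.56 for Erbb4 and Ntrk3 and 0.29 for Erbb4 and Ntrk2. These are descriptions over cells that share normalization and, in part, mice, and most Ntrk3 levels are tied at 0. Neither receptor followed depth closely, with a rho to total reads of -0.14 for Erbb4 and -0.15 for Ntrk2.

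Microglia markers were present in some of these cells and were highest in N42, the AC cell with Ntrk3 but no Erbb4. Their sum over 9 genes was 5850 CPM in N42, 1356 CPM in N26 and 0.947 CPM in N29. Cells with Erbb4 had such RNA too, with 3252 CPM in N46 (418 CPM of Erbb4), 1361 CPM in N32 (364 CPM) and 1089 CPM in N28 (552 CPM), and N27 with its 5 Erbb4 reads had 2244 CPM. Spearman's rho of Erbb4 with the summed microglia markers was -0.24 over the 26 cells and 0.21 over all 47 columns. The part of this RNA in the Erbb4 and Ntrk3 reads was not tested.

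For the comparison between regions, a difference of at least 1 in mean level was called. Between AC and CA3, 0 of the 8 genes were called, while 63.2% of the 6597 genes that passed the minimum were, and 45.7% of genes with any read. Over all these genes the median difference was -0.87, that is, levels were on the whole lower in AC. The difference of Erbb4 lay 0.79 above that median, that of Nrg3 1.10, Nrg2 1.09, Ntrk3 0.86 and Ntrk2 0.41. A gene with no difference lies 0.87 above it by subtraction alone, as does Tgfa without a read in these cells. Nrg2 and Ntrk3 did not pass the minimum set for the genes behind the median. Among all genes ordered by AC minus CA3, Nrg3 stood at the 72.4th percentile, Erbb4 at the 66.7th and Ntrk2 at the 58.3rd.

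The sign of each of these differences was unstable. For Erbb4 it ran from -0.77 to 0.84 over all settings and cells left out, for Ntrk2 from -1.75 to 1.31, for Nrg3 from -0.63 to 1.45, for Nrg2 from -0.57 to 1.64 and for Ntrk3, the widest, from -0.94 to 3.75. For Ntrk2 the lowest value came with all labelled cells and the highest with summed CPM.

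**Figure D3:**
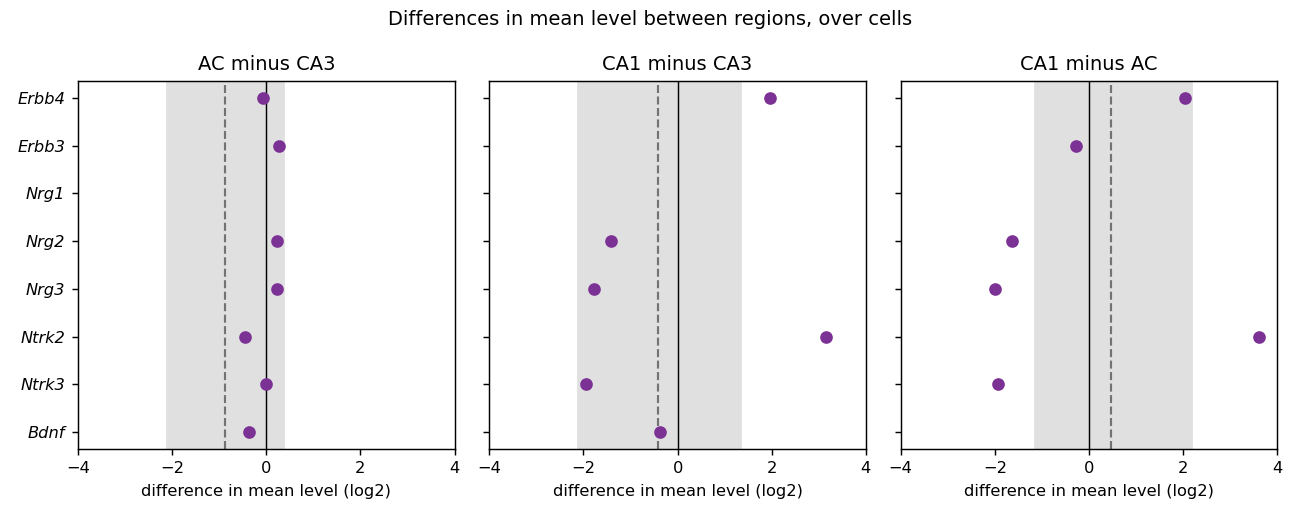
Differences in mean level (log2) for AC minus CA3, CA1 minus CA3 and CA1 minus AC, with 1 point per gene. The dashed line is the median over 6597 genes and the gray band spans their middle 50%. Nrg1 has no point because no region exceeded 3 reads, and genes without reads in both regions of a panel have none either. The points of AC minus CA3 lie between -0.46 and 0.27, with signs that turn with the settings, and those of Erbb4 and Ntrk2 lie above 1.9 in both CA1 panels, where summed CPM gives ratios of 0.840 and 0.854 for Erbb4 and 2.16 and 0.871 for Ntrk2.

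CA1 cells were too few for more than a description. Against CA3, 5 of the 8 genes were called, against 69.8% of the genes that passed the minimum and 55.5% of genes with any read. Erbb4 was 1.97 and Ntrk2 3.15 higher in CA1, where 29.6% of genes were higher by at least 1, and Nrg2, Nrg3 and Ntrk3 were lower by at least 1, as 40.2% of genes were. Against AC, the same 5 genes were called, against 68.5% of the genes that passed the minimum and 53.7% of genes with any read. Erbb4 was 2.05 and Ntrk2 3.61 higher in CA1, where 41.4% of genes were higher by at least 1, and Nrg2, Nrg3 and Ntrk3 were lower by at least 1, as 27.1% of genes were. Nrg2 and Ntrk3 did not pass the minimum set for the genes behind the shares of 40.2% and 27.1%. The Nrg2 difference against CA3 fell short of 1 without N31 (-0.86), and that against AC without N5 (-0.84) or N3X (-0.98). The Erbb4 difference was 1.02 against CA3 and 1.10 against AC without N1, and 3.36 and 3.43 without N2X. For Ntrk2 the difference against AC ran from 2.81 without N3X to 4.22 without N44. No gene of the group had levels that separated CA1 from either region without overlap.

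Mean levels and summed reads did not order the regions alike. All 3 CA1 cells had Erbb4 and Ntrk2, and the summed CPM of Erbb4 in CA1 was 0.840 of that in CA3 and 0.854 of that in AC. Without N2X, a CA1 cell, these ratios of Erbb4 were 2.10 and 2.13, and without N1, another CA1 cell, 0.548 and 0.557. For Ntrk2 the sum in CA1 was 2.16 times that in CA3 and 0.871 times that in AC (1.16 without N8). The higher mean level of Ntrk2 in CA1 than in CA3 was 2.51 without N26, and the medians over cells differed by 1.42. On the lower side, Ntrk3 was at least 99.3-fold higher in AC and at least 7.38-fold higher in CA3 than in CA1, with CA1 set at its floor of 3 reads. For Nrg2 these bounds were 26.6-fold for AC and 10.99-fold for CA3. Nrg3, with 3 reads in CA1, gave ratios of 138 for AC (47.2 to 669) and 50.6 for CA3 (17.3 to 246). These values moved with single cells. Without N2X, the bounds of Ntrk3 were 36.1-fold and 2.69-fold, that of Nrg2 against AC was 9.67-fold, and the ratio of Nrg3 for CA3 was 18.4. Without N31, Nrg2 in CA3 was 2.08-fold, and without N3X, the ratio of Nrg3 for AC was 26.7. With 0 or 1 of 3 cells positive, they describe these CA1 libraries only.

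Other genes of these pathways included some that were called between AC and CA3. Of 77 names in lists of ErbB and neurotrophin pathway genes, 76 were in the table and 39 passed the minimum of 10 cells. Of these 39, 5 were higher in AC and 15 higher in CA3 by at least 1, against 15.9% and 47.3% of all genes. The median difference over the 39 genes was -0.41, compared with -0.87 over all genes.

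Among the other ErbB receptors and their ligands, Egfr, the receptor for EGF, was higher in AC by 1.86 (5.73 ± 5.09 against 3.87 ± 4.60) and had 278 CPM in AC and 65.9 CPM in CA3. Erbb2, the partner with which ErbB4 can form heterodimers, had 2 reads in AC, 1 in CA3 and 1 in CA1, below the floor of 3 reads in each region. Nrg4 was read in 10 of the 26 cells at 4.58 CPM in AC and 4.15 CPM in CA3. Egf and Hbegf were read in 2 and 3 CA3 cells and in no AC or CA1 cell, and Tgfa, Btc, Areg, Ereg and Epgn had no read in the 26 cells.

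Of the enzymes that cleave neuregulins or ErbB4, 3 of 6 passed the minimum. Bace1, a protease that cleaves neuregulins, had an AC minus CA3 difference of -2.56 (2.85 ± 3.17 against 5.41 ± 3.50), with reads in 5 AC cells out of 10 and 11 CA3 cells out of 13. The sheddases Adam10 and Adam17 differed by -0.73 and 0.90.

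Among 8 passing partners of ErbB4 at the synapse, Dlg3, a scaffold protein of the postsynaptic density, was 2.48 higher in AC. Its relative Dlg1 was lower in AC (difference -2.27), as was Rnf41, a ubiquitin ligase that acts on ErbB receptors (-3.63). The scaffold genes Dlg4, Dlg2, Magi1 and Magi2 and the ErbB2-binding Erbin (Erbb2ip in the table) differed by less than 1.

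**Figure D4:**
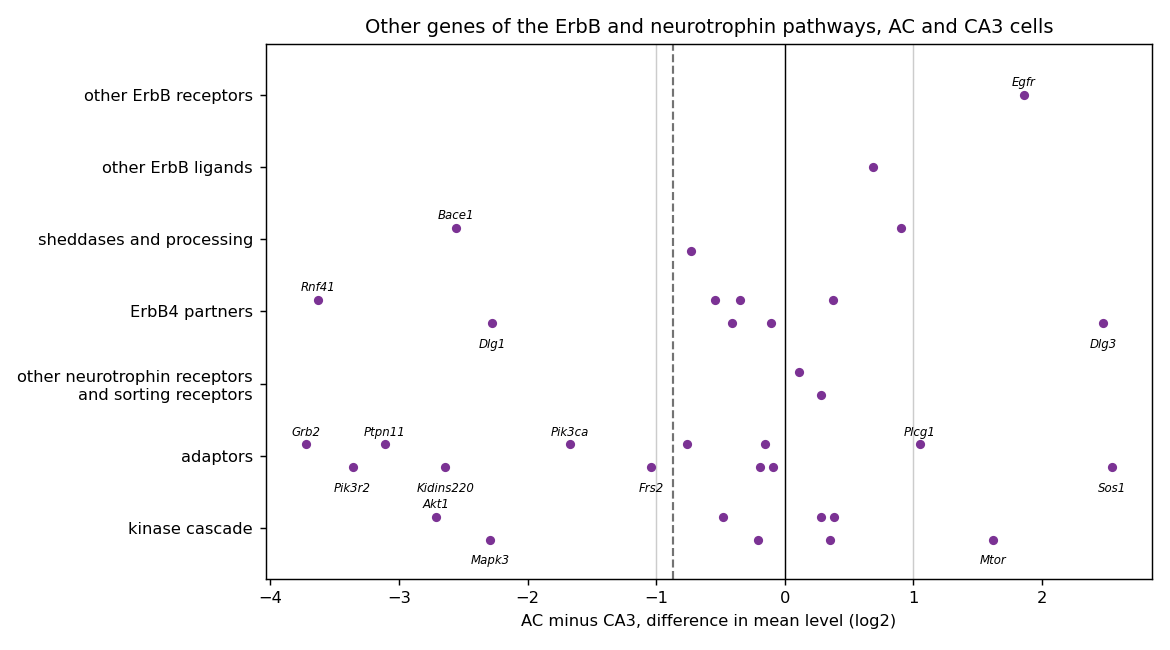
AC minus CA3 differences in mean level (log2) for 35 of the 39 pathway genes with a read in at least 10 cells, 1 point per gene, grouped by list. Solid gray lines mark a difference of 1 in either direction and the dashed line marks the median of -0.87 over 6597 genes. Of the points drawn, 11 lie left of -1 and 5 right of 1, against 15 and 5 of all 39 genes, so that the 4 genes not drawn all lie on the left.

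Of the other neurotrophins, Ntf3 had no read and Ntf5 a single read among the 26 cells. The receptor gene Ngfr had 0 reads. The sorting receptors Sort1 and Sorl1 were read in 20 and 15 cells and differed by 0.11 and 0.28. Sorcs3, another member of the sortilin family, fell short of the minimum with 9 cells and was found in 6 AC cells, 1 CA3 cell and 2 CA1 cells, at 92.3, 0.164 and 80.8 CPM. The study picked Sorcs3 for its difference on these cells, so its direction is not independent evidence.

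Of 12 adaptors downstream of both receptor families that passed, 2 were higher and 6 lower in AC, beside 15.9% and 47.3% of all genes. Sos1, a Ras exchange factor, was higher in AC by 2.55, and Plcg1, a phospholipase recruited by Trk receptors, by 1.05. The 6 genes lower in AC were Grb2 (difference -3.72), which links receptors to Sos1, the PI3 kinase subunit genes Pik3r2 (-3.36) and Pik3ca (-1.67), the phosphatase gene Ptpn11 (-3.11), the Trk-associated Kidins220 (-2.64) and the docking protein gene Frs2 (-1.04). Grb2 had also been picked by the study on these cells.

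In the kinase cascade further down, 11 genes passed, of which 1 was higher and 5 lower in AC, beside 15.9% and 47.3% of all genes. The MAP kinase kinase gene Map2k1 was read in all 26 cells and differed by 0.39 (10.53 ± 1.59 in AC and 10.15 ± 1.28 in CA3). Mtor was 1.62 higher in AC, while Akt1 (difference -2.71) and Mapk3 (-2.29) were among the genes lower in AC.

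Markers of other cell types were read in many of the 26 cells. They are given as sums of CPM, which are not corrected for gene length and cover lists of unequal size, so that a sum can be set against other cells but not against another list. Microglia markers summed to 5850 CPM in N42, 2244 in N27 and 3252 in N46, cells with 2020, 280 and 686 CPM of neurogliaform genes, and N4 had 3184 CPM of astrocyte and 2182 CPM of neurogliaform genes. The summed CPM of 10 astrocyte genes ran from 0.247 to 3184 in AC (highest in N4), from 0 to 660 in CA3 and from 155 to 1683 in CA1, with Aqp4 and Fgfr3 at 0 throughout. Oligodendrocyte genes (11) reached 367 CPM in AC, 1043 in CA3 and 567 in CA1, with Mog, Cldn11, Sox10 and Olig2 at 0. Microglia genes (9) reached 5850 CPM in AC, 2244 in CA3 and 452 in CA1, pyramidal cell genes (8) 862, 838 and 656 CPM, endothelial genes (5) 1.17, 33.7 and 2.44 CPM, and oligodendrocyte precursor genes (5) 0, 4.63 and 213 CPM. The sums of 6 GABAergic genes lay between 4936 and 31448 CPM and those of 4 neurogliaform genes between 280 and 7195 CPM. Activity-dependent genes (9) were higher in AC, at 1804 to 14671 CPM, than in CA3, at 238 to 3785 CPM, with overlap.

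Ntrk2 and the astrocyte markers were compared cell by cell. N4, with the most astrocyte signal, had 22 Ntrk2 reads, and N44, with 1772 CPM of Ntrk2, had 0.303 CPM over the 10 astrocyte genes. Other cells had both or neither, with 701 CPM of Ntrk2 beside 1683 CPM of markers in N1 and no Ntrk2 read beside 0.247 CPM in N3X. Spearman's rho of Ntrk2 with the summed astrocyte markers was -0.30 over the 26 cells and 0.33 over all 47 columns. Erbb4 had a rho of 0.51 with the summed oligodendrocyte markers over the 26 cells and -0.21 over the 47 columns. The part of such RNA in the reads of either gene was not tested.

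**Figure D5:**
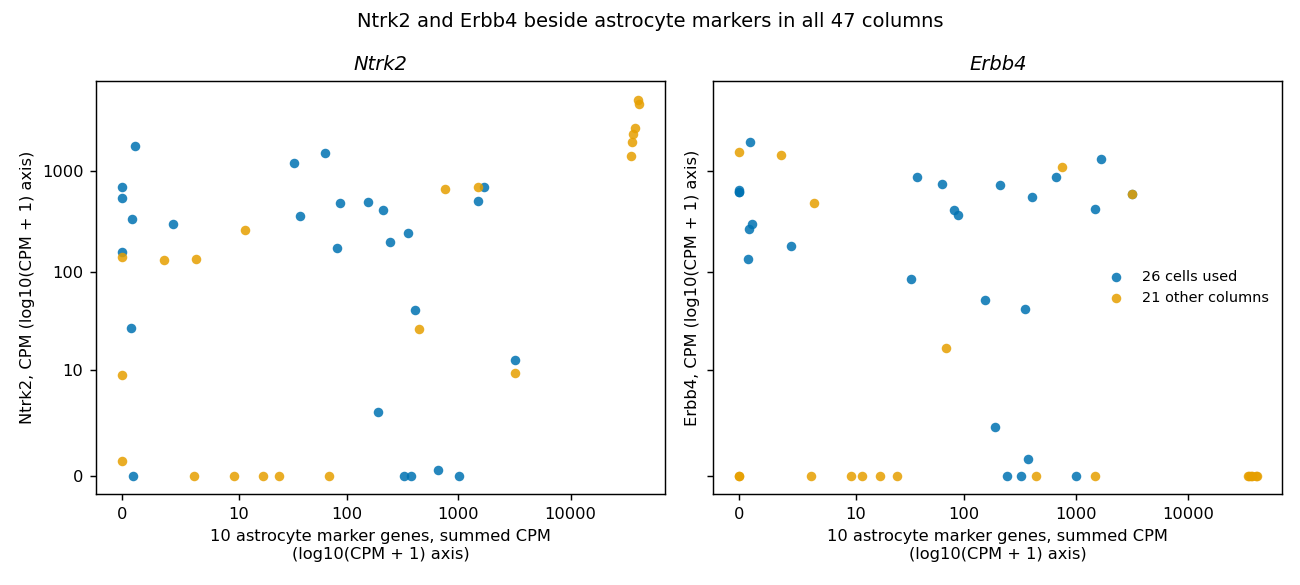
CPM of Ntrk2 (left) and Erbb4 (right) against the summed CPM of 10 astrocyte markers in all 47 columns, on log10(CPM + 1) axes, with 1 point per column. In the 6 columns with 34600 to 40904 CPM of astrocyte markers Ntrk2 lay at 1407 to 5017 CPM and Erbb4 at 0, and among the 26 cells Ntrk2 was read both in cells with little and in cells with much astrocyte RNA (1772 CPM in N44 with 0.303 CPM of markers, 701 CPM in N1 with 1683).

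The other labelled columns showed where the genes were read outside these cells. With N4X, which was far closer to N4 than any other pair of columns of a region were to each other (chi-square of 2.20 per degree of freedom, against at least 37.03 in the other 399 pairs) and was averaged with it as 1 cell, there were 19 AC and 21 CA3 labelled cells. Erbb4 was read in 12 of the 19 and 12 of the 21. The NPY-positive columns with Erbb4 beyond the 26 cells and N4X were N36 of CA3 with 3784 reads and N45, N47 and N48 of AC with 2568, 6776 and 7415, all of which carried 3 or more GABAergic markers at 3289 CPM or more in sum. The NPY-negative CA3 column N16 had 5 Erbb4 reads with 1 GABAergic gene at 3.43 CPM. Of the other AC columns, N9, N49, N50 and N51 had no Erbb4 read with 9635 to 35918 CPM of GABAergic markers on 1 to 4 genes, and N52 had none among its 40934 reads.

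Columns high in astrocyte markers had Ntrk2 but no Erbb4. N10, labelled AC, and N13, N17 and N22, labelled CA3, had 34600 to 40904 CPM of astrocyte genes, 466, 422, 576 and 815 Ntrk2 reads, and no Erbb4 read. Columns N15, N18 and N23 of CA3, with 32035 to 144616 CPM of oligodendrocyte genes, also had no Erbb4 read, and N18 held 59 reads on Erbb3 (171 CPM) and N15, N18 and N23 held 2, 90 and 11 on Ntrk2. With all labelled cells, the AC minus CA3 difference was -1.75 for Ntrk2 and 0.50 for Erbb4, and these columns are part of both values. The largest Nrg2 count of the table, 4109 reads, was in N48 of AC, and the largest Nrg1 count, 29 reads, was in N14 of CA3, a column with 5 of 5 oligodendrocyte precursor genes read.

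Genes with the pattern most like each receptor or ligand were looked up over the 26 cells among the 6596 other genes that passed the minimum. For Erbb4 these were Npc1 (Spearman's rho 0.80), a lysosomal cholesterol transporter, Nell2 (0.77), a secreted neuronal glycoprotein, and Shank3 (0.65), a scaffold of excitatory synapses. For Ntrk2 they were Lamp1 (0.72), a lysosomal membrane protein, Tmed7 (0.65) and Maea (0.63). For Nrg3 they were Ttc1 (0.73), Wdr48 (0.67) and Rnaseh2c (0.63). These values are the highest of many and describe 26 cells that share normalization.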

How the data were processed

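Raw counts of reads per gene symbol and cell were deposited as 1 table, without normalization. By the methods of the study, Trimmomatic and Flexbar preceded alignment to GRCm38 with STAR, HTSeq gave the counts (the submitters' processing notes list featureCounts), and counts of identifiers sharing a symbol (Ensembl version 86) were averaged. Here, counts of the 26 cells were divided by scran 1.30.0 size factors (computeSumFactors, pools of 10 and 20 cells, R 4.3.3) and set on a log2 scale with a pseudocount of 1. Poisson and Clopper-Pearson intervals were exact (scipy 1.17.1). Positions and lengths came from the GENCODE vM21 annotation of GRCm38, matched by symbol. No model was fitted across genes, since each region was 1 sample. The alternatives were TMM (edgeR 4.0.16), poscounts (DESeq2 1.42.0) and library-size factors, other pseudocounts, summaries and cell sets, thinning to 601781 reads per cell (seed 1) and leaving out each cell. Named were all 8 genes, pathway genes differing by at least 1 between AC and CA3, and the 3 genes most like each gene that passed the minimum. The values of some list genes are not reported here, while counts cover the lists as set. The genes and lists were chosen with earlier results of these data known. The steps were tested on simulated data.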

Additional observations from a re-analysis of the deposited data

Results flagged for a closer look

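In AC, the Erbb3 level of N44 and the Nrg1 level of N4 stood alone: every other AC cell was at 0, so the gap to the nearest cell divided by the range of the group was 1 in both cases. These rest on 5 and 2 reads. With all others at 0 this ratio is 1 by construction, so it says only that a single AC cell had reads. Of 7 gene and region groups of 4 to 10 cells examined this way, 2 were picked out, and the usual chance rate of about 1 in 20 groups does not hold for groups filled with zeros. Both dentate gyrus columns, which no comparison used, had Ntrk2 reads, 448 in N11 and 439 in N12, with no Erbb4 read and with 40147 and 36196 CPM of astrocyte markers. The NPY-negative CA3 column N16 had 5 Erbb4 reads and no read on the other 7 genes, with all 11 oligodendrocyte genes read at 199277 CPM.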

How the results depend on the processing

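Over 19 level differences and 212 values under other settings, 4 moved by more than 1 SD over cells and 4 called differences turned sign. With each cell left out in turn, 0 of 335 values did either. A move was impossible here by construction, since leaving out 1 cell shifts a mean by less than 1 SD over cells. For AC minus CA3, values with a cell left out still ran from -0.94 to 0.47 for Ntrk3 and from -1.10 to 0.34 for Ntrk2. Uncalled differences turned sign in 22 values under other settings and in 39 with a cell left out. On the log2 ratio of summed CPM, the CA1 difference of Erbb4 was -0.25 against CA3 and -0.23 against AC, and that of Ntrk2 against AC was -0.20 (-0.020 with mean CPM over cells). Nrg3 in CA1 fell to -5.66 against CA3 and -7.11 against AC with summed CPM, and to -6.40 against AC with mean CPM. Erbb3 in AC rose to 1.14 once the median of all genes was taken off, a step that raises AC minus CA3 by the same amount for every gene. Of the 8 genes, the number called between AC and CA3 (0) was 1 with a pseudocount of 0.1 (72.02% of all genes), 4 with summed CPM (44.2%), 3 with mean CPM (45.3%), 2 with all labelled cells (61.5%), 3 relative to the median of all genes (58.8%), and 0 to 1 with a cell left out (Ntrk2, lower in AC by at least 1 without N44, N7, N8, N26 or N39). Between CA1 and CA3 (5) it was 3 with a pseudocount of 10, 2 with medians over cells, 2 with summed CPM, 2 with mean CPM, 3 with all labelled cells, 3 with labelled cells of at least 1000000 reads (chosen after seeing the data), 3 with cells thinned to 601781 reads, and 4 relative to the median of all genes (54.6% to 71.1% of all genes). Between CA1 and AC (5) it was 1 with medians, with summed CPM and with mean CPM, 4 with a pseudocount of 10 and 4 with labelled cells of at least 1000000 reads (48.6% to 77.4%). With a cell left out, both CA1 counts were 4 to 5, Nrg2 being the gene lost. The cause was not tested, except that by construction sums and medians weigh cells at 0 differently, and sums weigh cells by depth. N2X, the CA1 cell with most reads (3202430), had the lowest Erbb4 in CA1, at 52.5 CPM. With mean CPM, which weighs cells alike, the difference of Erbb4 between CA1 and CA3 was 0.82. At 10 reads in place of 1, the share of cells with Erbb3 and Nrg1 in AC and with Nrg3 in CA1 became 0%. No paired analysis was possible because the labels give each cell a name of its own and tie no cells across regions. Depth limits CA1 most, where 3 reads equal 0.596 CPM.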
